A study of Mus musculus with 9 samples.

Results

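*Med23*-deficient stage 2 iNKT cells were compared with WT stage 2 iNKT cells across all genes. The comparison used 6 of the 9 libraries of the series, 3 per genotype, and tested the 20674 of 21883 genes whose FPKM (fragments scaled for transcript length and for mapped reads) was above 0 in at least 1 of the 6. Invariant natural killer T (iNKT) cells are T cells that recognise lipids on CD1d through a nearly fixed T cell receptor alpha chain. They arise from double-positive thymocytes, expand, and then acquire an NK cell-like programme, and the stages are defined by surface CD24, CD44 and NK1.1. Stage 2 cells had passed the CD24 high stage and carried CD44 but not NK1.1, and stage 3 cells carried both. Med23 is a subunit of Mediator, the complex that links transcription factors to RNA polymerase II, and it is known to serve the Ras and MAP kinase branch through the factor Elk1.

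All mice were of the C57BL/6 strain, and all cells were sorted from the thymus by FACS. Deficient mice carried *Med23* fl/fl and a *Cd4*-Cre transgene, which by the study's account deletes *Med23* in double-positive thymocytes, so the deletion also reaches conventional T cells. Control mice are labelled WT and, by the series description, were 6 weeks old. The age of the deficient mice was not given in the labels used here, nor a sequencing batch or date for either genotype, so a batch that followed the genotype cannot be told apart from it. Whether the replicates were separate mice is not stated, so the p-values measure the spread between these libraries. WT stage 3 libraries, also 3, are quoted beside some genes as a reference level. They entered no test except the alternative fit of all 9 libraries.

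Between 15584 and 17333 genes lay above 0 in these 6 libraries, and the depth behind them is unknown because no counts were used. Correlations of log2(FPKM + 1) were 0.912 to 0.925 between libraries of the same genotype and 0.886 to 0.910 between genotypes. A single short gene model, *Gm23935*, took 62.2% to 71.9% of the summed FPKM of each library. The cells carried their defining transcripts in both genotypes. *Trav11* and *Traj18*, the segments of the invariant alpha chain, measured 86.9 to 137 FPKM and 50.0 to 125 FPKM over the 6 libraries. Transcripts of *Trac* lay between 265 and 392 FPKM, and *Zbtb16*, which encodes the iNKT lineage factor PLZF, between 68.1 and 112 FPKM. Of the 24 iNKT and T cell identity genes, 22 passed neither threshold described below. *Cd8a* did not exceed 1.64 FPKM and *Foxp3* did not exceed 0.41 FPKM in these libraries, and *Ddx3y*, a Y-linked gene, was present in each.

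*Med23* itself (chromosome 10, 24869986 to 24913681, mm10) was measured at 5.51, 5.15 and 6.74 FPKM in the WT libraries and at 4.80, 3.60 and 3.92 FPKM in the deficient libraries. The groups did not overlap, but the difference of -0.41 ± 0.18 (log2, SE) did not pass the test (adjusted p = 0.552 by limma with Benjamini-Hochberg adjustment, which is the adjusted p given throughout). A gene-level FPKM counts reads from the whole gene and does not resolve the floxed part, so transcripts that lack it are still counted. Of the 33 Mediator subunits, 0 passed the fold and p thresholds, and their median log2 difference was 0.0032 (-0.09 on the TPM scale). Among 117 genes tested within 10 Mb of *Med23*, 2 passed, both lower, or 1.71% against 2.11% of all genes tested. These were *Myb* and the small RNA model *Gm25596*.

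Across all genes, 437 (2.11% of those tested) differed by at least 2-fold with an unadjusted p of at most 0.05, which are the thresholds of the study and are called the fold and p thresholds here. Of these, 165 (0.798%) were higher and 272 (1.32%) lower in the deficient cells. Among the 11750 genes whose FPKM averaged at least 1, 147 (1.25%) were higher and 245 (2.09%) lower. After adjustment for all genes tested, 44 (0.213%) kept p at or below 0.05, of which 14 (0.0677%) were higher and 30 (0.145%) lower. That split moved with the scaling and was 5 higher and 26 lower on the TPM scale, 2 and 25 on the TPM scale without *Gm23935*, and 21 and 27 with a common upper quartile. Without histone and gamma T cell receptor genes, the fold and p thresholds left 391 genes (165 higher, 226 lower) and the adjusted p left 33 (14 higher, 19 lower). Genes past the adjusted p are said to have risen or fallen, and genes past the fold and p thresholds alone are called higher or lower. Differences are given as log2(FPKM + 1), deficient minus WT, and the added 1 shrinks the change of genes near 0. Histone genes gave 39 lower of 82 tested, led by *Hist1h1b*, *Hist1h2ae* and *Hist1h1a*, and gamma T cell receptor genes 7 lower of 12, led by *Trgv2*, *Tcrg-C2* and *Tcrg-C4*. The count of genes past adjusted p depended on the model and on each library. With all 6 libraries it was 0 with a replicate block and 1 by a model after Ballgown, the tool the study used, 143 among genes averaging at least 1 FPKM, and 176 when the WT stage 3 libraries joined the fit. It was 3, 1 and 3 without WT replicate 1, 2 and 3, and 4, 6 and 8 without deficient replicate 1, 2 and 3.

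**Figure D1:**
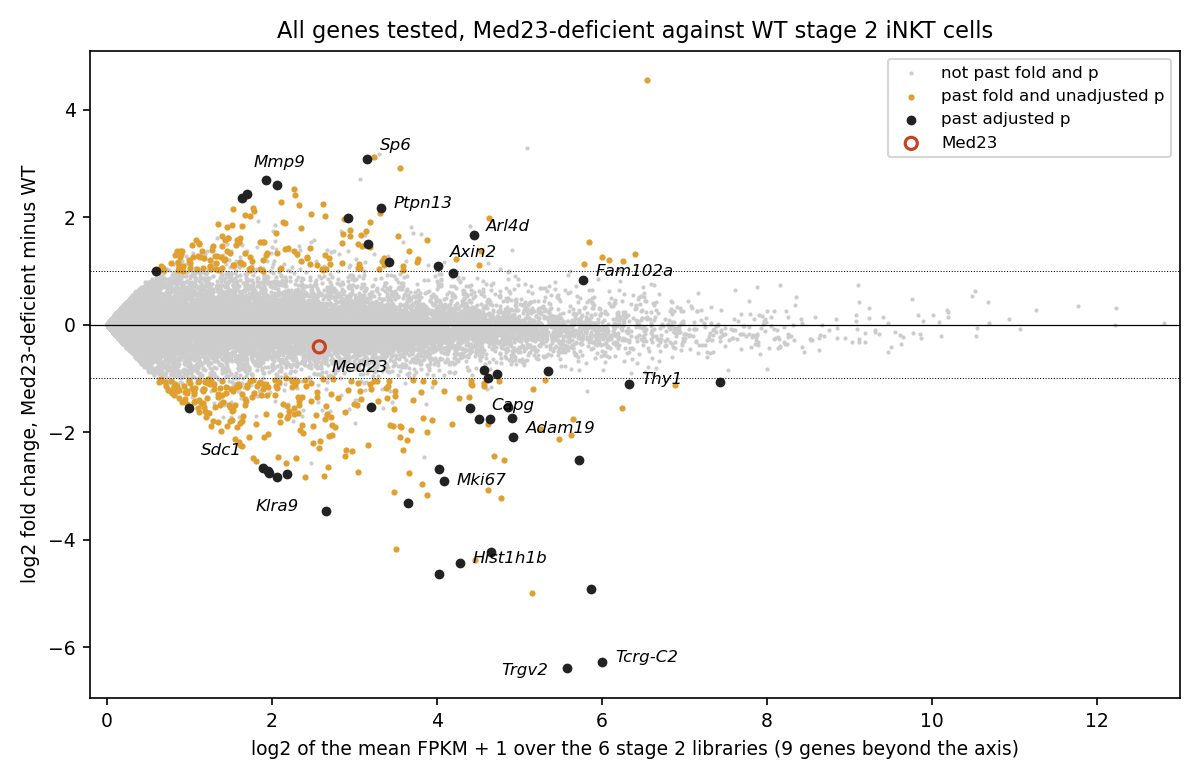
Each point is 1 of the genes tested, with the mean level over the 6 stage 2 libraries on the horizontal axis (log2 of mean FPKM + 1, 9 genes lie beyond the axis) and the log2 fold change, *Med23*-deficient minus WT, on the vertical axis. Orange points passed the fold and p thresholds (437 with the black ones of at least 2-fold), black points the adjusted p (44), and the circle is *Med23*; 30 of the 44 black points lie below 0.

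Several of the largest increases were of genes at or near 0 in WT cells. *Sp6*, a zinc finger transcription factor of the SP family, measured 0.78, 0.36 and 1.61 FPKM in WT and 15.1, 17.0 and 12.5 FPKM in deficient cells, and rose by 3.09 ± 0.29 (log2, SE; adjusted p = 0.0309). *Mmp9*, a secreted matrix metalloproteinase, was listed at 0 in the 3 WT libraries and at 5.84, 7.09 and 3.95 FPKM in the deficient ones (adjusted p = 0.0367). *Grm4*, a metabotropic glutamate receptor, measured 0, 0.27 and 0.28 FPKM in WT and 6.87, 6.31 and 5.34 FPKM in deficient cells (adjusted p = 0.0312). No overlap between the genotypes was a condition for naming these 3 genes. None of the WT stage 3 libraries exceeded 0.36 FPKM for them, so the levels in deficient stage 2 cells lay outside both WT stages.

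*Ptpn13*, a protein tyrosine phosphatase, measured 2.49, 3.55 and 1.90 FPKM in WT and 13.3, 14.8 and 18.0 FPKM in deficient cells, and rose by 2.18 ± 0.22 (adjusted p = 0.0367). Its WT stage 3 libraries reached 1.48 to 3.19 FPKM, again below each deficient library. *Axin2*, a feedback inhibitor and common readout of Wnt and beta-catenin signalling, stood at 9.35, 8.94 and 9.32 FPKM in WT and at 21.89, 21.98 and 18.93 FPKM in deficient cells. It rose by 1.10 ± 0.10 (adjusted p = 0.0312), with WT stage 3 at 7.22 to 8.57 FPKM. *Cdyl2*, a chromodomain protein, followed the same order with 11.1 to 11.8 FPKM in WT, 23.0 to 23.7 FPKM in deficient cells and 9.61 to 10.1 FPKM at WT stage 3 (0.96 ± 0.09, adjusted p = 0.0304).

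Other genes that rose were already higher at WT stage 3 than at WT stage 2. *Neurl3*, a ubiquitin ligase, measured 1.45, 2.26 and 2.46 FPKM in WT and 12.8, 8.91 and 11.4 FPKM in deficient cells (1.98 ± 0.22, adjusted p = 0.0472), against 16.8 to 21.4 FPKM at WT stage 3. *Arl4d*, a small GTPase of the ARF-like family, went from 9, 11.67 and 7.76 FPKM to 34.79, 34.04 and 27.2 FPKM (1.66 ± 0.17, adjusted p = 0.0403), with 18.5 to 37.2 FPKM at WT stage 3. *Sytl2*, an effector of Rab27 in granule transport, stood at 5.36 to 6.07 FPKM in WT, 12.6 to 14.6 FPKM in deficient cells and 10.9 to 16.6 FPKM at WT stage 3 (adjusted p = 0.0415). The deficient libraries overlapped the WT stage 3 libraries for *Arl4d* and *Sytl2* and lay between both WT stages for *Neurl3*. *Fam102a* rose by 0.84 ± 0.08, less than 2-fold, from 35.5 to 39.9 FPKM in WT to 66.9 to 70.8 FPKM (adjusted p = 0.0312). At WT stage 3 *Fam102a* measured 44.2 to 49.7 FPKM, below each deficient library. *Pde2a*, a cyclic nucleotide phosphodiesterase, rose from 3.50 to 3.76 FPKM to 11.2 to 12.8 FPKM (1.5 ± 0.13, adjusted p = 0.0304), and its WT stage 3 libraries scattered from 0.62 to 11.4 FPKM. This gene model (ENSMUSG00000030653) overlaps a second one of the same name and strand (ENSMUSG00000110195) that went the other way, at 8.51, 8.80 and 10.9 FPKM in WT and 0.93, 0.89 and 4.78 FPKM in deficient cells (-1.91, adjusted p = 0.231), so how reads were divided between both models is uncertain and the increase is too. The remaining 3 genes that rose were *Thsd4*, at 0.91 to 1.06 FPKM in deficient cells and at most 0.02 FPKM in WT, the antisense model *Gm11209* and the microRNA model *Mir7052*, both listed at 0 in the WT stage 2 libraries. At WT stage 3 *Thsd4* was listed at 0, *Gm11209* at 0 to 1.1 FPKM and *Mir7052* at 1.31 to 6.11 FPKM.

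Other large increases passed the fold and p thresholds alone. *L1cam*, an adhesion molecule, measured 1.15, 0.76 and 1.55 FPKM in WT and 8.61, 6.47 and 8.73 FPKM in deficient cells (2.06 ± 0.24, adjusted p = 0.0511). *Gpr25*, a G protein-coupled receptor, was at 0 to 0.60 FPKM in WT and 4.05 to 4.98 FPKM in deficient cells (adjusted p = 0.0638), and was listed at 0 at WT stage 3. *Khdrbs3*, an RNA-binding protein, and *Tigit*, an inhibitory receptor shared by T and NK cells, reached 3.79 to 10.2 FPKM and 3.12 to 11.3 FPKM in deficient cells against at most 1.46 FPKM and 1.19 FPKM in WT. At WT stage 3 *Khdrbs3* was listed at 0, but *Tigit* reached 4.78 to 12.4 FPKM and *L1cam* 4.13 to 5.71 FPKM, also above WT stage 2. Among the 15 named increases, *Snord96a* rested on 2 deficient libraries (23.1 and 27.0 FPKM, the third 0.19 FPKM, near the WT values of 0.03 to 0.14 FPKM), and its call ended in 7 of 17 alternative analyses. *Mir1843a* had 0.21 FPKM in 1 of its deficient libraries against 6.88 and 12.7 FPKM in the others. *Pvrig-ps* and *Trbj1-7* had a WT library at 5.52 and 7.53 FPKM, near their lowest deficient values of 5.73 and 10.7 FPKM. The calls of these 3 genes ended when single libraries were left out, those of *Pvrig-ps* without WT replicate 1 or 2 or deficient replicate 1 or 3. *Trav12-1* and *Rln3*, which encodes relaxin-3, completed the 15, with 1.62 to 5.67 FPKM and 2.39 to 7.61 FPKM in deficient cells. WT stage 3 libraries held 1.58 to 4.34 FPKM of *Trav12-1*, 1.48 to 10.1 FPKM of *Mir1843a* and 11.1 to 28.5 FPKM of *Pvrig-ps*. They held 1.25 to 7.28 FPKM of *Trbj1-7*, 0 to 2.46 FPKM of *Rln3* and at most 0.10 FPKM of *Snord96a*.

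**Figure D2:**
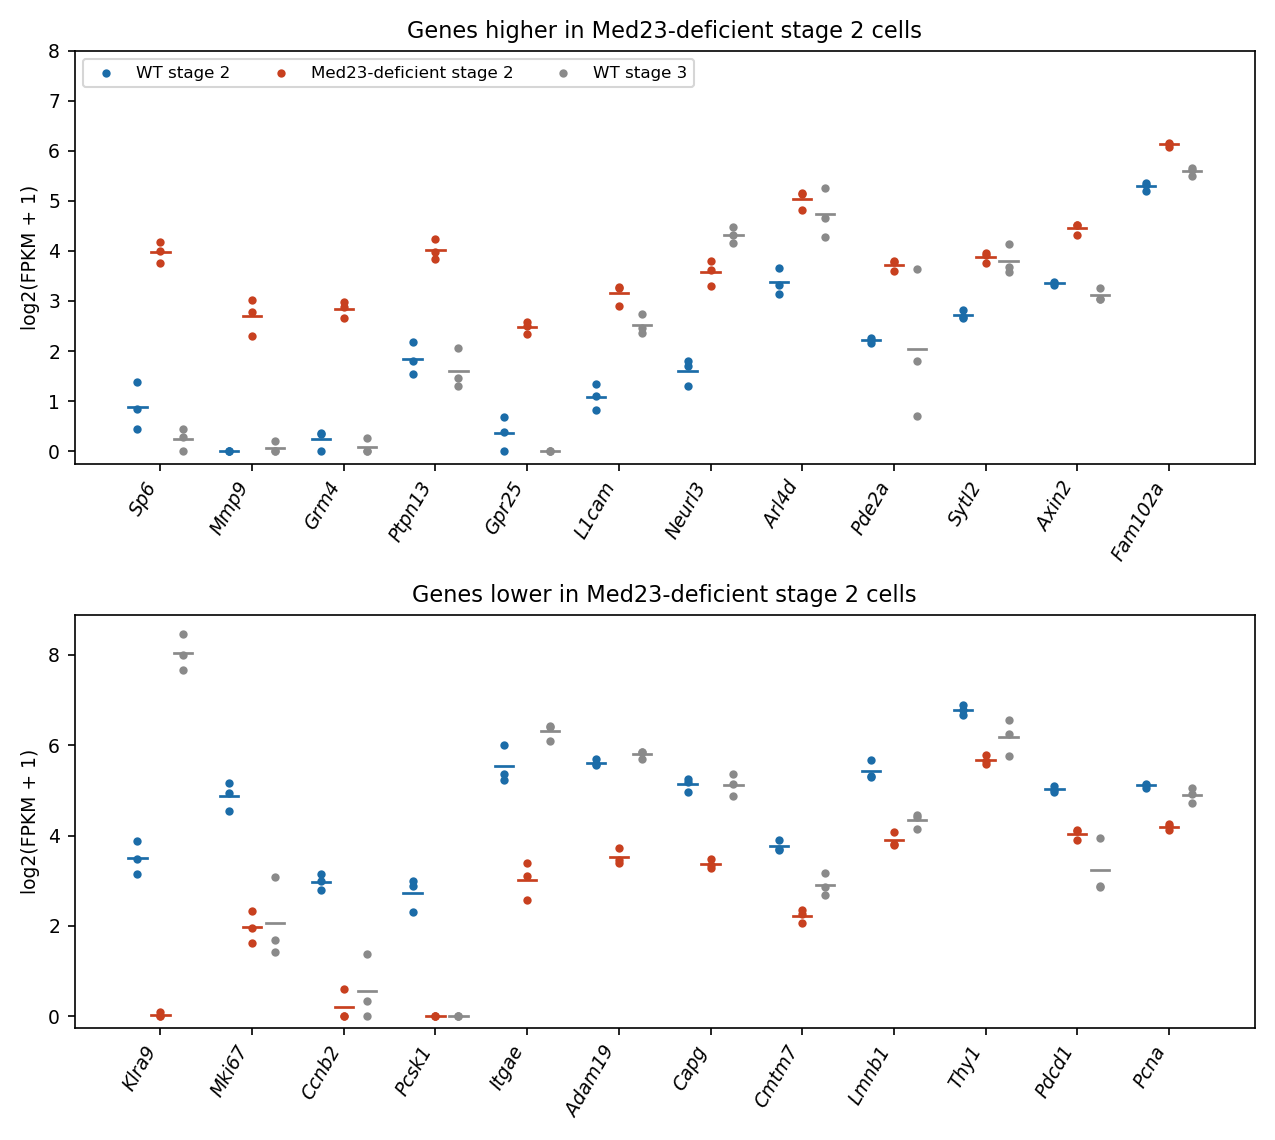
Level in each library, as log2(FPKM + 1), of 12 genes higher (upper panel) and 12 lower (lower panel) in *Med23*-deficient stage 2 cells, with WT stage 2 in blue, deficient stage 2 in red and WT stage 3 in grey; points are libraries and bars are means. The deficient libraries of *Sp6* (12.5 to 17.0 FPKM) and *Ptpn13* (13.3 to 18.0 FPKM) lie above the libraries of both WT stages, and those of *Adam19* (9.43 to 12.3 FPKM) and *Capg* (8.77 to 10.2 FPKM) below them.

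Of the protein-coding genes that fell outside the histone and gamma T cell receptor families, *Adam19* and *Capg* had the lowest adjusted p, though not the largest changes. *Adam19*, a membrane-bound metalloprotease that sheds surface proteins, measured 46.9, 50.9 and 46.3 FPKM in WT and 9.43, 9.95 and 12.3 FPKM in deficient cells, and fell by 2.09 ± 0.12 (log2, SE; adjusted p = 0.00947). *Capg*, which caps actin filaments, measured 37.0, 35.4 and 30.1 FPKM in WT and 8.77, 10.2 and 9.26 FPKM in deficient cells (-1.75 ± 0.12, adjusted p = 0.0170). WT stage 3 cells held both genes at their WT stage 2 level or near it, 51.1 to 57.0 FPKM and 28.2 to 40.4 FPKM. *Thy1*, the surface glycoprotein CD90, fell by 1.11 ± 0.09, from 117, 101 and 108 FPKM to 48.9, 46.8 and 53.8 FPKM (adjusted p = 0.0301). *Pdcd1*, which encodes the inhibitory receptor PD-1, fell by 0.99 ± 0.10, from 30.2 to 33.3 FPKM to 13.9 to 16.3 FPKM (adjusted p = 0.0367). *Cmtm7*, a MARVEL domain membrane protein, stood at 11.8 to 13.9 FPKM in WT and 3.20 to 4.08 FPKM in deficient cells (adjusted p = 0.0321), and *Pcsk1*, a prohormone convertase, at 3.94 to 6.98 FPKM in WT and at 0 in the 3 deficient libraries (adjusted p = 0.0367). WT stage 3 cells also lay below WT stage 2 for *Thy1* (53.5 to 92.6 FPKM), *Pdcd1* (6.22 to 14.4 FPKM), *Cmtm7* (5.41 to 8.02 FPKM) and *Pcsk1* (listed at 0). The same held for the antisense model *9530036M11Rik* (3.70 to 5.11 FPKM). The antisense model *9530036M11Rik* measured 33.3, 26.8 and 30.6 FPKM in WT and 0, 0.52 and 0.28 FPKM in deficient cells, but whether the quantification used strand is not given in the sources used here, and without strand its reads cannot be told apart from those of *Chn2*, the gene it overlaps (37.5 to 49.7 FPKM in WT and 25.7 to 32.6 FPKM in deficient cells, adjusted p = 0.279). The processed pseudogenes *Gm10182* and *Gm4761* also fell, and whether their reads came from other genes was not tested. *Gm4761* (chromosome 6, 67414431 to 67415012) lies beyond the end of *Il23r* (67422932 to 67491855), and both are on the minus strand. At WT stage 3 *Gm10182* measured 10.5 to 14.9 FPKM and *Gm4761* 0 to 0.97 FPKM. Among the 15 largest named decreases, *Mir7647* (0.74, 9.44 and 10.7 FPKM in WT) and *Tgm3*, a transglutaminase (5.55, 1.26 and 5.36 FPKM), were listed at 0 in the deficient libraries without passing the adjusted p (0.330 and 0.181). Both were also listed at 0 at WT stage 3.

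The NKT17 genes formed the list with the largest share of lower members. NKT17 cells are the iNKT subset that makes IL-17, and they are marked by syndecan-1, IL-23 receptor and IL-1 receptor. Of the 25 genes asked for, 21 were tested. In deficient cells 13 (61.9%) were lower and 0 higher past the fold and p thresholds, against 2.11% of all genes, and 3 of them (*Cd163l1*, *Blk* and *Sdc1*) fell by the adjusted p. The median log2 difference was -1.66, against -0.0136 over all genes tested, and leaving out any 1 library left 12 or 13 lower members. In bulk RNA, fewer cells of a subset and less RNA per cell cannot be told apart.

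*Sdc1*, syndecan-1, measured 5.94, 4.49 and 5.84 FPKM in WT and 0, 0 and 0.03 FPKM in deficient cells (-2.66 ± 0.23, adjusted p = 0.0304). *Blk*, a Src family kinase, stood at 6.76, 6.12 and 4.53 FPKM in WT and was listed at 0 in the deficient libraries (adjusted p = 0.0304). Both genes were among the largest named decreases, for which no overlap between the genotypes was a condition. The receptors followed. *Il23r* was at 5.48, 3.13 and 6.36 FPKM in WT and listed at 0 in deficient cells (adjusted p = 0.0511), and *Il1r1* at 2.23 to 5.01 FPKM against 0.03 to 0.10 FPKM (adjusted p = 0.0774). *Il17re*, the receptor for IL-17C, had 0.62 to 1.76 FPKM in WT and at most 0.12 FPKM in deficient cells. *Cd163l1* and *5830411N06Rik*, scavenger receptors known as SCART1 and SCART2, were at or near 0 in deficient cells, *Cd163l1* with 4.61 to 8.26 FPKM in WT and at most 0.02 FPKM in deficient cells. *Serpinb1a*, *Tmem176b*, *Aqp3*, *S100a4* and *Ramp1* were also lower, and the last 2 kept the most transcript in deficient cells (1.09 to 8.42 FPKM and 17.2 to 27.0 FPKM).

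Not every NKT17 gene was lower. *Rora*, an orphan nuclear receptor, measured 7.54, 11.4 and 8.27 FPKM in WT and 8.99, 9.51 and 7.82 FPKM in deficient cells (-0.03, adjusted p = 0.964). *Itgb3*, integrin beta 3, stood at 36.2, 27.6 and 36.6 FPKM in WT and 41.9, 39.6 and 46.4 FPKM in deficient cells (0.35, adjusted p = 0.486). The groups overlapped for *Rora* and did not for *Itgb3*, where the deficient libraries were the higher ones. *Emb* (-0.59), *Ccr6*, *Krt83*, *Ly6g5b*, *Ltb4r1* and *Tmem176a* passed neither threshold either. Some NKT17 genes were also at or near 0 at WT stage 3, for example *Blk* at 0 to 0.22 FPKM.

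The start regions of 3 of these genes and of *Adam19*, the gene with the smallest adjusted p outside the 2 set-apart families apart from an antisense model, are shown because nuclear receptors and AP-1, the Jun and Fos complex that the study examined, read known short motifs. They are the 250 bases before the RefSeq start (GRCm38.p6, the build named mm10), 5′ to 3′ on the strand of the gene, at chr6:67491856-67492105 (minus strand, *Il23r*), chr12:8771146-8771395 (plus, *Sdc1*), chr7:140218017-140218266 (plus, *Cd163l1*) and chr11:46055734-46055983 (plus, *Adam19*). Capitals mark the nuclear receptor element AGGTCA or the AP-1 motif TGANTCA, on either strand; the 2 motifs did not overlap here.
Il23r: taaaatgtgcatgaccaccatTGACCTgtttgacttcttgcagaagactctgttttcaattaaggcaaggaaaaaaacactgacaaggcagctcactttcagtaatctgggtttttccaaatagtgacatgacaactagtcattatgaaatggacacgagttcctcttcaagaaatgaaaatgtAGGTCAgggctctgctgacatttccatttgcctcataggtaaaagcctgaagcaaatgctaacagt
Sdc1: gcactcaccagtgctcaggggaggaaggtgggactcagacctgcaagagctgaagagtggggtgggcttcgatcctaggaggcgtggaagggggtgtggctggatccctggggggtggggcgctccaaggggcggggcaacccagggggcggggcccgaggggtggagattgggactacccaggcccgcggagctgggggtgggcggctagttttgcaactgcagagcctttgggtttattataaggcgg
Cd163l1: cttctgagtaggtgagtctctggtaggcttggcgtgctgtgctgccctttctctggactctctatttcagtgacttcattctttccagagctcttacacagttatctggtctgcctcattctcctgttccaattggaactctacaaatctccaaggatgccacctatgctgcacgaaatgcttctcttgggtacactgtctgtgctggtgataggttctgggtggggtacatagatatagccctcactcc
Adam19: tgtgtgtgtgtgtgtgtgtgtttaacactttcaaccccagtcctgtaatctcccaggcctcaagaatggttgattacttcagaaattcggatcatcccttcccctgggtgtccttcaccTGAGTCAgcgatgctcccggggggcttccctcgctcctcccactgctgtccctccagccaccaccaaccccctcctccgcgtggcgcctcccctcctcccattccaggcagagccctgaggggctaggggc
*Il23r* held 2 AGGTCA elements, which begin 229 and 66 bases before the start, *Adam19* held 1 AP-1 match at 131 bases, and the windows of *Sdc1* and *Cd163l1* held neither. Of the 13 lower NKT17 genes, 10 matched a RefSeq window, 3 of these 10 held an AGGTCA element and 0 an AP-1 match. Over all 32851 windows of this length, 14.0% held the AGGTCA element and 6.75% the AP-1 motif. The windows shown were not picked by a rule. Of the 15 largest named decreases, 10 matched a window, of which 2 held an AGGTCA element and 0 an AP-1 match. Of the 15 largest named increases, 5 matched, of which 1 held an AGGTCA element and 0 an AP-1 match. A match is a description of the letters only.

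**Figure D3:**
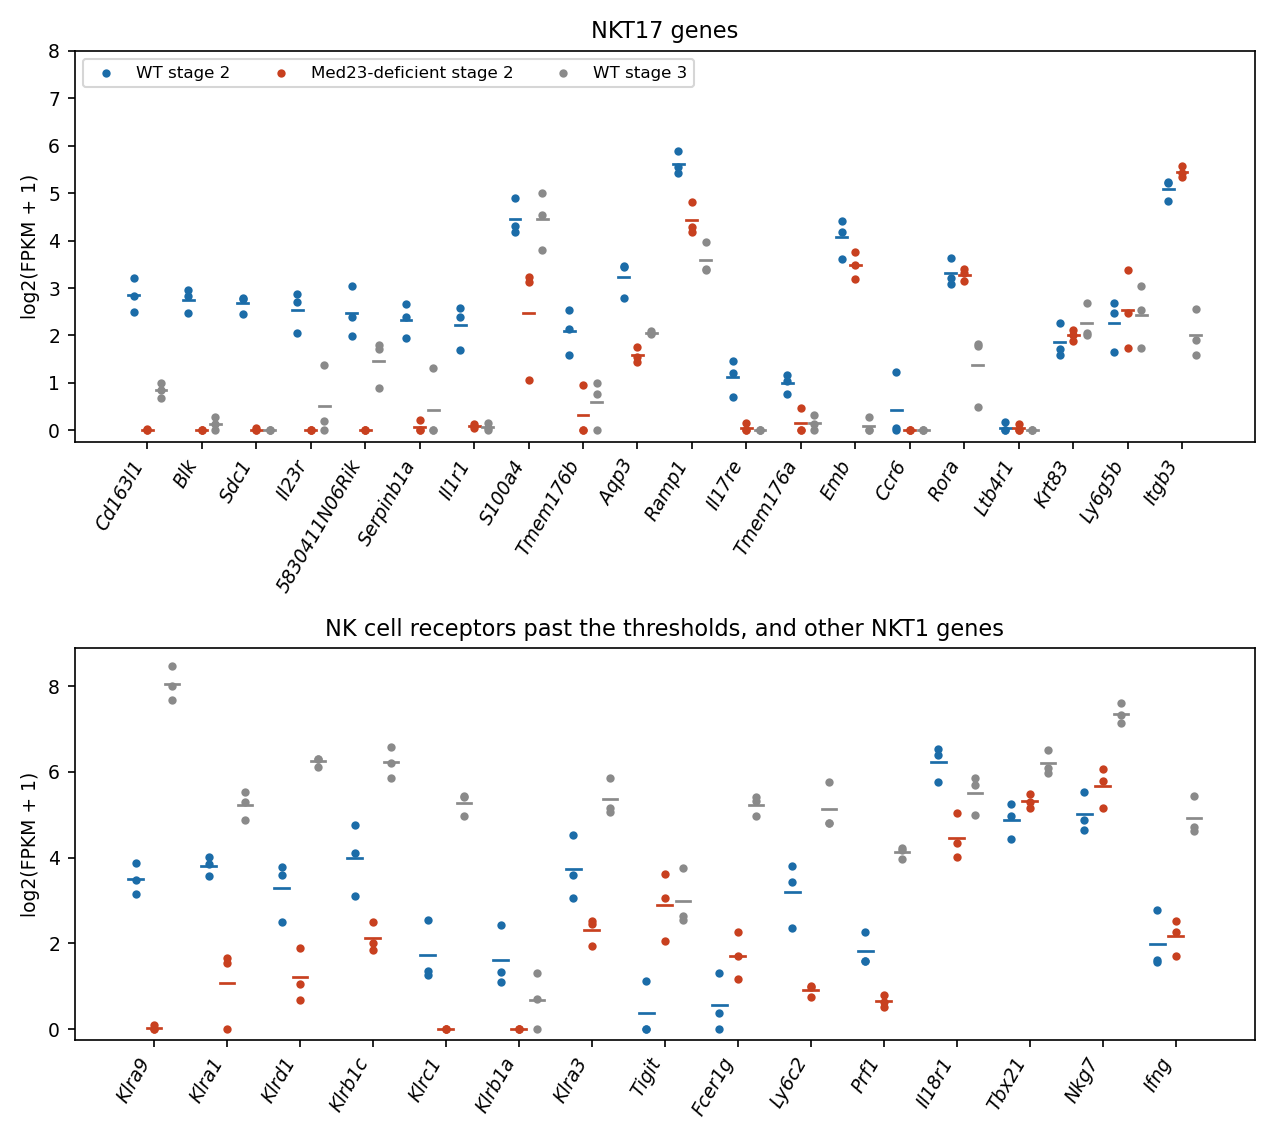
Level in each library, as log2(FPKM + 1), of NKT17 genes (upper panel, ordered by fold change) and of NK cell receptors past the fold and p thresholds with other NKT1 genes (lower panel), for WT stage 2 (blue), *Med23*-deficient stage 2 (red) and WT stage 3 (grey); points are libraries and bars are means. From *Cd163l1* to *Il1r1* the red points lie below 1 FPKM while the WT stage 2 points lie between 2.23 and 8.26 FPKM, and *Tigit* and *Fcer1g* are the receptor genes whose mean is higher in red than in blue.

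NK cell receptors split by gene. The cells were sorted as NK1.1 low, so *Klrb1c*, which encodes NK1.1, is tied to the gate, and related receptors may be too. Of 26 NK cell receptor genes tested, 7 were lower and 1 higher past the fold and p thresholds (30.8%, against 2.11% of all genes, median -0.40). *Klra9*, the inhibitory receptor Ly49I, measured 13.6, 7.92 and 10.2 FPKM in WT and 0, 0 and 0.07 FPKM in deficient cells, and fell by 3.47 ± 0.27 (adjusted p = 0.0253). At WT stage 3 it reached 203 to 351 FPKM, so WT stage 2 cells held a small part of the stage 3 level and deficient cells almost none. *Klra1* (Ly49A) was at 15.1, 13.4 and 10.8 FPKM against 1.90, 0 and 2.17 FPKM (-2.74, adjusted p = 0.118), and *Klrd1* (CD94) at 4.66, 11.0 and 12.8 FPKM against 2.72, 1.08 and 0.61 FPKM (-2.08, adjusted p = 0.204). *Klrb1c* itself measured 16.3, 26.2 and 7.65 FPKM in WT and 4.60, 2.61 and 3.04 FPKM in deficient cells (-1.88, adjusted p = 0.210). *Klrc1*, *Klrb1a* and *Klra3* were the other 3 lower receptors, and *Tigit* was the higher one. The Ly49 genes resemble each other closely and reads that hit 2 loci were kept, so their single values are uncertain.

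Of the 32 NKT1 and stage 3 genes tested, 9 were lower and 1 higher (31.2%, against 2.11% of all genes, median -0.43). NKT1 cells make interferon gamma under T-bet. The lower genes were 6 of the receptors just named, *Ly6c2* (9.74, 13 and 4.16 FPKM against 0.67, 1.01 and 0.96 FPKM), *Prf1*, which encodes perforin, and *Il18r1*, a chain of the IL-18 receptor. *Il18r1* measured 52.8, 83.4 and 91.9 FPKM in WT and 15.1, 19.4 and 31.9 FPKM in deficient cells (-1.76 ± 0.32, adjusted p = 0.135), with 30.6 to 57.0 FPKM at WT stage 3. *Tbx21*, *Ifng* and *Xcl1* did not pass. *Tbx21*, which encodes T-bet, measured 37.2, 30.5 and 20.4 FPKM in WT and 34.9, 38.2 and 43.6 FPKM in deficient cells (0.43, adjusted p = 0.622). *Ifng* lay at 1.97 to 5.89 FPKM against 2.26 to 4.74 FPKM, and *Xcl1* at 7.23 to 18.0 FPKM against 11.9 to 16.5 FPKM, and the groups overlapped for all 3. *Fcer1g*, the Fc receptor gamma chain, was the higher gene, at 0.30, 0 and 1.48 FPKM against 3.80, 1.24 and 2.23 FPKM, and its call ended in 8 of 17 alternative analyses.

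The NKT2 genes gave 0 past either limit of fold and p among 16 tested, with a median of 0.0682 that turned negative (-0.02) on the TPM scale. *Il4*, the cytokine of NKT2 cells, measured 18.4, 25.6 and 15.4 FPKM in WT and 28.5, 26.5 and 27.3 FPKM in deficient cells (0.48 ± 0.18, adjusted p = 0.477). *Gata3*, the regulator of type 2 cytokines, stood at 35.8 to 42.5 FPKM against 60.7 to 77.2 FPKM (0.82, adjusted p = 0.0786), and *Icos* at 132 to 142 FPKM against 81.9 to 97.5 FPKM (-0.60, adjusted p = 0.0881). Each of the 3 separated the genotypes, *Il4* and *Gata3* with deficient cells above and *Icos* with deficient cells below. *Zbtb7b*, which encodes ThPOK, also separated them, at 16.1 to 29.1 FPKM against 29.8 to 36.1 FPKM (0.48, adjusted p = 0.558). For comparison, groups did not overlap for 5.63% of all genes with deficient cells above and 8.37% with deficient cells below.

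Among 44 T lineage transcription factors, 3 were lower and 2 higher (11.4%, against 2.11% of all genes). *Myb*, a factor of thymocyte progenitors and proliferating cells, was at 10.8, 11.3 and 9.80 FPKM in WT and 3.66, 4.21 and 1.96 FPKM in deficient cells (-1.48 ± 0.24, adjusted p = 0.103). *Sox4* was also lower. *Bcl6*, a repressor that directs follicular helper T cells, measured 1.17, 0.42 and 1.11 FPKM in WT and 3.63, 3.21 and 2.82 FPKM in deficient cells (1.17 ± 0.28, adjusted p = 0.219), and its call ended without WT replicate 2. *Tox2* was higher at overlapping levels (0.75 to 3.87 FPKM against 2.84 to 12.1 FPKM), and 10 of 17 alternatives ended its call. *Runx2*, *Zbtb16* and *Fosl2*, which the study examined, differed by -0.25, -0.37 and 0.82 and did not pass, though *Fosl2* did without deficient replicate 1.

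The immediate early genes, which the MAP kinase pathway induces through serum response factor and Elk1, gave 1 lower and 0 higher among 30. That share of 3.33% was near those of all genes (2.11%) and of genes averaging at least 1 FPKM (3.34%). The list median was 0.0473 (-0.04 on the TPM scale). *Egr1*, the early growth response factor and a known Elk1 target, was that gene, at 32.8, 27.0 and 24.9 FPKM in WT and 15.7, 14.4 and 8.27 FPKM in deficient cells (-1.12 ± 0.25, adjusted p = 0.199). Its WT and deficient libraries did not overlap, and the call ended without deficient replicate 3. *Egr2*, needed for early iNKT development, stood at 11.8, 8.63 and 10.4 FPKM against 8.69, 5.19 and 3.42 FPKM (-0.80, adjusted p = 0.478), and it passed the fold and p thresholds without deficient replicate 1. *Jun*, a chain of AP-1, measured 30.6, 45.5 and 24.2 FPKM in WT and 36.4, 47.0 and 34.1 FPKM in deficient cells (0.26 ± 0.25, adjusted p = 0.737), with 41.1 to 48.5 FPKM at WT stage 3. *Jund* lay at 101 to 108 FPKM against 126 to 144 FPKM (0.33, adjusted p = 0.266). The genotypes overlapped for *Jun* and *Egr2*. None of the 27 MAP kinase feedback genes passed, and the most abundant, *Dusp2* and *Dusp1*, overlapped (55.9 to 102 FPKM against 70.4 to 104 FPKM for *Dusp2*).

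T cell receptor signalling genes gave 2 higher and 0 lower among 40 (5%, against 2.11% of all genes and 3.34% of those averaging at least 1 FPKM), with a median of 0.11 (-0.01 on the TPM scale). One was *Ptpn13*. The other, *Ubash3a*, encodes a suppressor of T cell receptor signalling and measured 3.22, 2.28 and 3.57 FPKM in WT, 12.11, 10.48 and 15.03 FPKM in deficient cells and 14.1 to 17.6 FPKM at WT stage 3 (1.75 ± 0.21, adjusted p = 0.0514). *Fyn* and *Sh2d1a*, the kinase and adaptor of the SLAM pathway that iNKT cells need, differed by 0.10 (-0.03 on the TPM scale) and -0.16 and did not pass, and neither did the SLAM receptors *Slamf1* (-0.65) and *Slamf6* (-0.96). *Slamf6* passed the fold and p thresholds in 5 of 17 alternatives (-1.07 with a pseudocount of 0.1) and separated the genotypes, at 9.75 to 14.7 FPKM against 4.35 to 6.98 FPKM. Of 29 PI3K and mTOR genes 0 passed. *Tsc1*, a brake on that pathway, measured 2.72 to 4.52 FPKM in WT and 3.90 to 5.71 FPKM in deficient cells.

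Cytokines and their receptors were mixed. Past the fold and p thresholds were 13% of 23 cytokines and chemokines, 14% of 43 cytokine receptors and 6.06% of 33 TNF superfamily genes. Over all genes the share was 2.11%, and over those averaging at least 1 FPKM it was 3.34%. *Csf1*, the macrophage growth factor M-CSF, was at 2.12, 2.30 and 3.76 FPKM in WT and 20.4, 11.0 and 9.07 FPKM in deficient cells (1.91 ± 0.33, adjusted p = 0.122), against 0.49 to 1.31 FPKM at WT stage 3. *Lif*, a cytokine of the IL-6 family, was at 0, 0 and 0.22 FPKM against 0.89, 2.62 and 3.28 FPKM. *Tgfb3* was the lower one of 23, at 1.26 to 2.12 FPKM against at most 0.17 FPKM (-1.39, adjusted p = 0.0814). Both higher cytokines and *Tgfb3* separated the genotypes. Of the 23, 3 did so with deficient cells above and 2 with deficient cells below, against 5.63% and 8.37% of all genes. Of 43 cytokine receptors, *Il10ra* and *Il2ra*, which encodes CD25, were higher, with 3.97 to 6.79 FPKM and 3.40 to 6.57 FPKM in deficient cells against at most 2.03 FPKM and 1.5 FPKM in WT. The 4 lower ones were *Il23r*, *Il1r1*, *Il18r1* and *Il17re*. *Tnfsf14*, the ligand LIGHT, measured 9.04, 12.98 and 14.08 FPKM in WT and 33.8, 33.5 and 30.1 FPKM in deficient cells (1.38 ± 0.17, adjusted p = 0.0586). *Tnfsf9*, the ligand of 4-1BB, was the other higher gene of 33 in the TNF superfamily and had 1 deficient library (0.85 FPKM) near the highest WT value of 0.79 FPKM, and its call ended without WT replicate 2 or 3 or deficient replicate 1 or 3.

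Adhesion and homing genes gave 3 lower and 1 higher among 31 (12.9%, against 2.11% of all genes). *Itgae*, the integrin chain CD103, measured 36.3, 63.6 and 40.4 FPKM in WT and 4.93, 7.63 and 9.49 FPKM in deficient cells (-2.51 ± 0.29, adjusted p = 0.0511), and 67.4 to 85.4 FPKM at WT stage 3. *Itgb7*, the chain that pairs with it, was at 61.9 to 69.1 FPKM against 73.4 to 82.5 FPKM (0.22, adjusted p = 0.489). The alpha chain was thus lower in every deficient library and its partner was not. *Itga4*, the other alpha chain that pairs with beta 7, stood at 6.50, 3.59 and 5.66 FPKM against 0.46, 0.57 and 0.44 FPKM (-2.04 ± 0.28, adjusted p = 0.0701). *Itga2*, the integrin chain CD49b, was higher at 4.01 to 4.92 FPKM against 0.90 to 1.5 FPKM (1.29, adjusted p = 0.132). Among 29 matrix proteases and inhibitors, *Adam19* fell, *Mmp9* rose and *Mmp25* was lower, at 0.91 to 1.87 FPKM in WT and listed at 0 in deficient cells. Of 22 costimulatory and checkpoint receptors, *Tigit* and *Cd200r1* were higher (9.09%, against 2.11% of all genes past the fold and p thresholds) and *Pdcd1* fell. The call of *Cd200r1* ended without WT replicate 2 or 3 or deficient replicate 1.

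**Figure D4:**
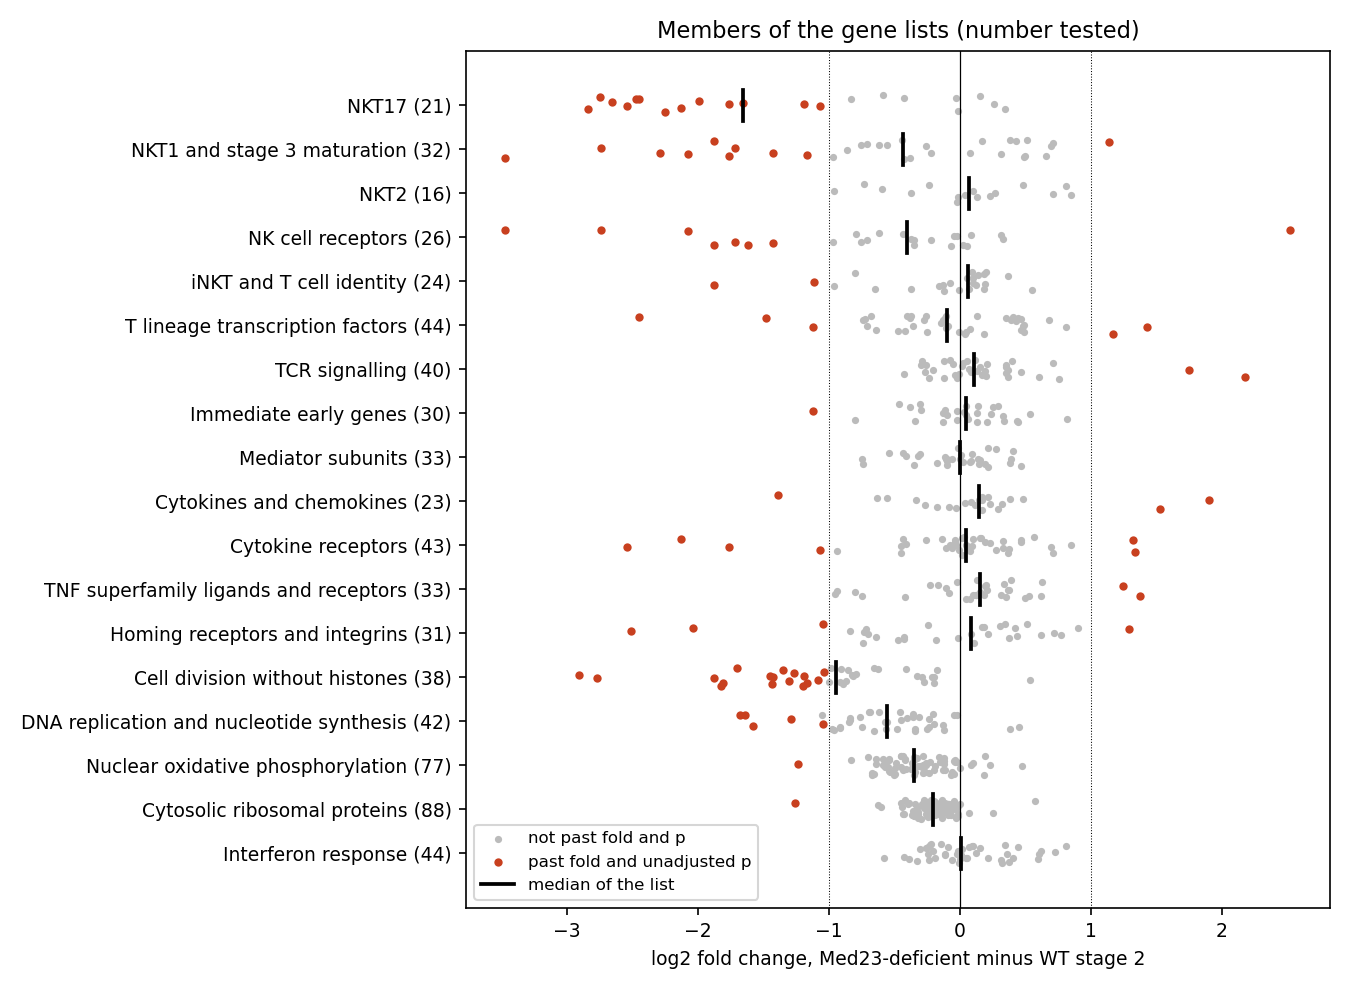
Each point is a tested member of a gene list, placed by its log2 fold change (*Med23*-deficient minus WT stage 2); red points passed the fold and p thresholds, black bars are list medians and the number tested stands in parentheses. The NKT17 list (median -1.66) and the cell division list (median -0.95) lie farthest to the left of the lists drawn, which leave out the histone (median -1.06), gamma T cell receptor and marker lists, and the Mediator (0.0032) and interferon (0.0056) lists centre near 0, with a sign that turned negative on the TPM scale.

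Among 38 cell division genes without histones, 17 (44.7%) were lower and 0 higher past the fold and p thresholds, against 1.32% lower of all genes, 2 of them past the adjusted p, and the median log2 difference was -0.95, with 37 members below 0. *Mki67*, which encodes the proliferation antigen Ki-67, measured 22.3, 29.7 and 34.8 FPKM in WT and 4.05, 2.09 and 2.89 FPKM in deficient cells, and fell by 2.91 ± 0.24 (adjusted p = 0.0301). *Ccnb2*, a mitotic cyclin, fell from 7.89, 6.93 and 5.90 FPKM to 0, 0.53 and 0 FPKM (adjusted p = 0.0367). *Top2a*, topoisomerase II of dividing cells, was at 9.43, 5.21 and 9.20 FPKM against 1.5, 1.21 and 1.4 FPKM (-1.88 ± 0.27, adjusted p = 0.0774). For *Mki67* and *Ccnb2* no overlap between the genotypes was a condition of being named. *Top2a*, picked without that condition, did not overlap either, and deficient cells lay below without overlap for 8.37% of all genes. *Aurka* was the 1 member above 0 (0.54, adjusted p = 0.731). WT stage 3 cells were low as well, with *Mki67* at 1.69 to 7.47 FPKM and *Top2a* at 0.58 to 2.95 FPKM.

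Of 42 DNA replication and nucleotide synthesis genes tested, 5 (11.9%) were lower and 0 higher past the fold and p thresholds, against 1.32% lower of all genes, 40 lay below 0 and the median was -0.56. *Pcna*, the sliding clamp of DNA polymerase, fell by 0.92 ± 0.08, from 32.29, 33.99 and 34.43 FPKM to 16.4, 18.1 and 17.5 FPKM (adjusted p = 0.0304). *Mcm3*, a subunit of the replicative helicase, fell by 0.84 ± 0.09, from 28.5 to 31.5 FPKM to 15.5 to 17.0 FPKM (adjusted p = 0.0427). Both were less than 2-fold. The 5 lower genes were *Rrm2*, *Uhrf1*, *E2f2*, *Cdc45* and *Dut*. *Lmnb1*, a lamin of the nuclear envelope, fell by 1.53 ± 0.15 (38.1 to 50.1 FPKM against 12.8 to 15.9 FPKM, adjusted p = 0.0312), and *Nap1l1*, a histone chaperone, by 0.86 ± 0.08 (adjusted p = 0.0304). *Ezh2*, the Polycomb methyltransferase, was the lower gene of 37 chromatin writers and erasers, at 5.10 to 5.51 FPKM against 1.60 to 2.65 FPKM (adjusted p = 0.173). That is 2.7% of the list, near the 2.11% of all genes. The call of *Ezh2* ended with a common upper quartile and without deficient replicate 3.

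**Figure D5:**
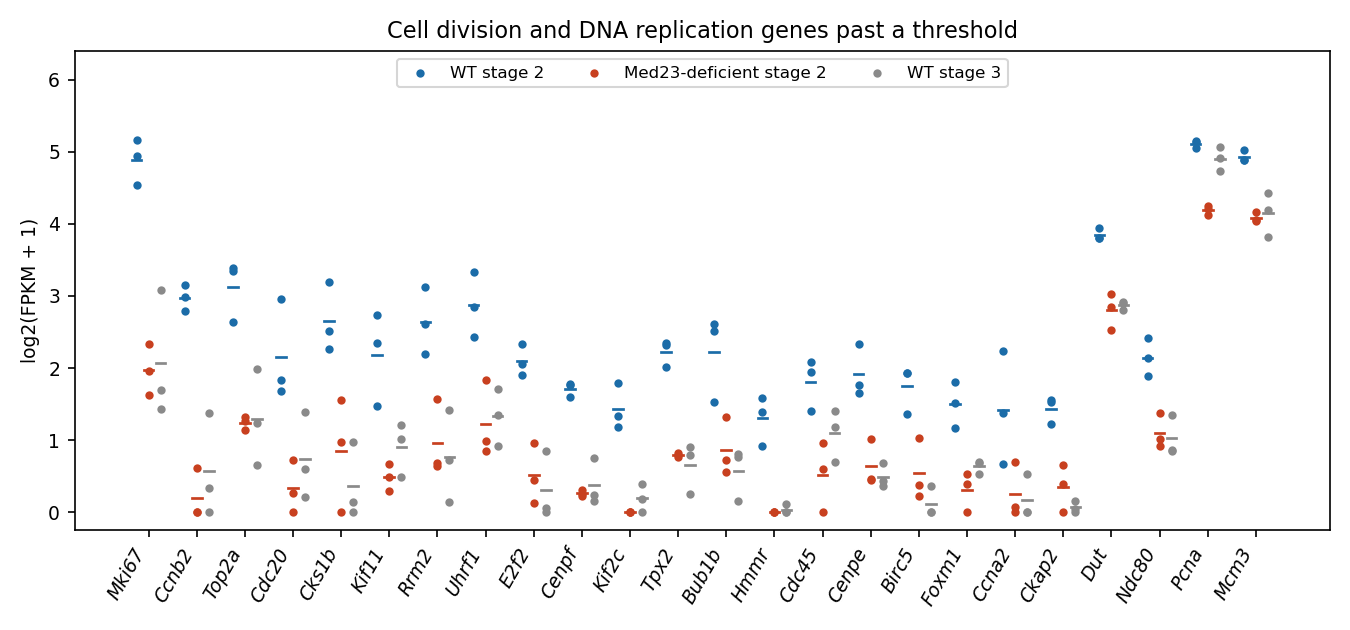
Level in each library, as log2(FPKM + 1), of the cell division and DNA replication genes past either threshold, ordered by fold change, for WT stage 2 (blue), *Med23*-deficient stage 2 (red) and WT stage 3 (grey); points are libraries and bars are means. *Mki67* shows the widest gap, 22.3 to 34.8 FPKM in WT against 2.09 to 4.05 FPKM in deficient cells, and *Pcna* and *Mcm3* at the right show narrow gaps with little scatter.

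Of 77 nuclear oxidative phosphorylation genes 70 lay below 0, with a median of -0.35, against 10901 of all 20674 genes, but only *Ndufa4*, a component of cytochrome c oxidase, passed the fold and p thresholds (12.6, 17.2 and 14.4 FPKM against 5.38, 8.21 and 3.92 FPKM). Of 88 cytosolic ribosomal protein genes 84 lay below 0, with a median of -0.20, and only *Rps27l* passed, a call that ended without deficient replicate 3. Both depended on the scaling. With a common upper quartile 63 of 77 and 64 of 88 lay below 0 and the medians were -0.25 and -0.10, and on the TPM scale the medians were -0.46 and -0.33. Among 21 glycolysis genes, 27 cholesterol and fatty acid synthesis genes, 44 interferon response genes, 16 BCL-2 family genes, 8 GIMAP genes and 13 mitochondrially encoded genes, none reached the fold and p thresholds and 0 passed the adjusted p by limma. The fold and p thresholds were passed by 2.11% of all genes. Below 0 lay 15 of the 21 glycolysis genes (median -0.26) and 11 of the 13 mitochondrially encoded genes (median -0.19). With a common upper quartile these medians were -0.16 and -0.09. The medians of the other lists without a passing member ran from -0.08 to 0.24. Over all gene models of the snoRNA type, 11 were higher and 8 lower of 388 tested. Of the 32 scaRNA models 2 were higher and 0 lower. Over all genes 0.798% were higher and 1.32% lower. The 125 models whose symbol begins with Snora, Snord or Scarna gave 8 higher and 2 lower (8%, against 2.11% of all genes). *Snord111*, *Snord69* and *Snora30* (9.09 to 15.1 FPKM against 2.68 to 4.02 FPKM) followed *Snord96a*. The calls of *Snord111* and *Snord69* ended in 11 and 9 of 17 alternatives. FPKM of such short models is sensitive to fragment length.

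Markers of other cells were read library by library beside these results, and their part in the differences was not tested. The 8 gamma-delta T cell markers in the table summed to 307 to 336 FPKM in WT and 9.11 to 13.6 FPKM in deficient cells, and in WT nearly all of it came from the gamma constant genes *Tcrg-C1*, *Tcrg-C2* and *Tcrg-C4*. *Trdc*, the delta constant gene that defines these cells, did not exceed 0.38 FPKM in any library. *Cd163l1* belongs to that list as well as to the NKT17 list. B cell markers summed to 31.2 to 50.2 FPKM in WT and 86.0 to 104 FPKM in deficient cells, and *Ighm* gave almost all of it, at 31.2, 49.7 and 40.6 FPKM against 104, 90.4 and 85.6 FPKM (1.20 ± 0.18, adjusted p = 0.0832). *Cd79b* did not exceed 0.50 FPKM, and 4 to 7 of the 8 B cell markers in the table were at 0. NK cell markers summed to 1.5 to 4.92 FPKM in WT and 5.35 to 9.30 FPKM in deficient cells (66.0 to 94.8 FPKM at WT stage 3), mostly *Itga2* and *Fcer1g*, with 0 of *Eomes* in each deficient library. Regulatory T cell markers summed to 99.5 to 119 FPKM and 104 to 125 FPKM, with *Il2ra* and *Ikzf4* higher (the latter not without WT replicate 2 or deficient replicate 3) and *Foxp3* at 0 in the deficient libraries. Double-positive thymocyte markers summed to 13.7 to 14.6 FPKM and 10.1 to 12.7 FPKM, and myeloid markers to 54.7 to 72.8 FPKM and 38.6 to 50.7 FPKM, mostly *Ctss*, with 0 of either list past the fold and p thresholds. The single erythroid marker in the table was at most 0.05 FPKM in these 6 libraries, and of the 4 thymic epithelium and 6 sex chromosome genes tested 0 passed.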

How the data were processed

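RNA was measured by total RNA sequencing (SMARTer stranded Pico kit) of FACS-sorted thymic iNKT cells. Per the labels and the study's methods, the authors trimmed reads with Trimmomatic 0.36, aligned them to mm10 with HISAT2, and deposited gene-level FPKM values made with StringTie on a GENCODE annotation. No read counts were used, so depth cannot be stated and counting intervals were not computed. The identity of replicates (separate mice or not) and the number of mice per library are not given in the sources used here. The table was set beside the labels by its column names, and 0 value columns stayed unmapped.

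Values were taken as log2(FPKM + 1), genes with FPKM above 0 in at least 1 of the 6 stage 2 libraries were kept, and limma 3.58.1 in R 4.3.3 (lmFit, eBayes with trend) compared 3 deficient with 3 WT libraries, with Benjamini-Hochberg adjustment over all genes tested. For a single gene an exact permutation of 3 against 3 cannot go below p = 0.1. The members and gene lists were chosen with earlier results of these data known, so their counts are descriptions and no set test was run.

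Named genes were *Med23* and genes the study examined; the 15 largest increases and 15 largest decreases past the fold and p thresholds with mean FPKM of at least 1, no overlap and a proper gene name, without histone and gamma T cell receptor genes; up to 4 members of each list past these thresholds, or its most abundant members; and the genes near *Med23* that passed. Other genes, among them those named for their adjusted p alone, such as *Adam19*, *Capg* and *Axin2*, and list members beyond the first 4, were chosen after their values were seen. Some list members are counted but not reported here by name. Start regions came from RefSeq (GRCm38.p6). Alternatives were pseudocounts of 0.1 and 0.01, a mean FPKM minimum of 1, quantile normalization, the TPM scale, scaling to a common upper quartile, no trend, all 9 libraries, a replicate block, a linear model after Ballgown and each library left out, and, chosen after seeing the data, the TPM scale without *Gm23935*.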

Additional observations from a re-analysis of the deposited data

How the results depend on the processing

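Of 2350 values of 139 named genes under 17 alternatives, 2201 kept their direction and their side of the fold and p thresholds, 87 lost a call, 14 gained one and 48 changed sign. The count of genes past fold and p, 437, became 971 and 974 with pseudocounts of 0.1 and 0.01, was between 332 and 458 under the other settings that kept all 6 libraries, and ranged from 471 to 544 with a library left out. The count of genes past adjusted p, 44, was less steady: 77 with a pseudocount of 0.01, 143 among genes averaging at least 1 FPKM, 176 with all 9 libraries, 27 on the TPM scale without *Gm23935*, 1 by the Ballgown-style model, and from 1 to 8 with a library left out. The replicate block gave 0 by limma, beside 453 past fold and p; the deviations of same-numbered libraries correlated at 0.0338, 0.0007 and 0.14, so the numbers were not taken to pair the samples. Fewer libraries leave fewer degrees of freedom; for the other settings the cause was not tested. Relative to the main scale, where the median over genes averaging at least 1 FPKM was -0.05, the TPM scale gave -0.16 and the common upper quartile 0.04. *Med23* stayed between -0.52 and -0.32 and passed under none of the 17.

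The sign changes were of genes that passed no threshold. *Il15ra* became 0.0032 and 0.0158 with pseudocounts of 0.1 and 0.01 and 0.0173 with the upper quartile. On the TPM scale *Fyn* became -0.0322, *Dusp2* -0.0382, *Gimap4* -0.053, *Aldoa* -0.0415 and *Rps24* -0.0592. With the upper quartile *Btg1* became 0.087, *Bcl2a1b* 0.0316, *Mcl1* 0.0885, *Rplp1* 0.0219 and *Kmt2d* 0.0496, and with quantile normalization *Btg1* became 0.0512, *Mcl1* 0.0526 and *Kmt2d* 0.0225. *Krt18* was -0.0203 by the Ballgown-style model. With a library left out, the log2 difference ran from -0.2136 to 0.2466 for *Il15ra*, -0.0414 to 0.5656 for *Ifng*, -0.1198 to 0.2888 for *Cd24a*, -0.1138 to 0.067 for *Btg1*, -0.1889 to 0.253 for *Dusp2*, -0.2523 to 0.5566 for *Dusp1*, -0.3335 to 0.0748 for *Med15*, -0.0098 to 0.2942 for *Eif4ebp2*, -0.1886 to 0.0079 for *Bcl2a1b*, -0.0969 to 0.0714 for *Mcl1*, -0.0398 to 0.225 for *Aldoa*, -0.2168 to 0.0452 for *Rplp1*, -0.0388 to 0.1351 for *Rps24*, -0.1497 to 0.0177 for *Kmt2d*, -0.1666 to 0.3185 for *Themis*, -0.3112 to 0.3522 for *Krt18* and -0.2557 to 0.0873 for *Ddx3y*.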
